A study of Mus musculus with 8 samples.

Results

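Ms4a4b, Ms4a4c, Ms4a6b, Ms4a6c and Ms4a6d are members of the Ms4a gene family, and their transcripts were followed in T regs made from WT and Alox15-/- naive CD4+ T cells. The genes were taken by their symbols, which gave 5 of the 28239 symbols in the deposited count table, and 4 of them reached the abundance needed for a test. Naive CD4+ T cells of C57BL/6 background had been isolated from spleen by immunomagnetic negative selection and cultured for 2 days with IL-2, TGF-β and beads carrying antibodies to CD3 and CD28, and both groups received the same culture. There were 4 libraries labelled Alox15-/- and 4 labelled WT, each read by MACE-seq, which counts transcripts near their 3′ ends. The study's methods give young adult mice of both sexes for its mouse work as a whole, and neither age nor sex is given for these libraries. The labels describe spleens as the material kept in lysis buffer, whereas the study's methods describe harvested cultured cells, and which was lysed bears on every level below and on the sums of erythroid, myeloid and mast cell markers in particular. According to the study's methods the WT mice came from Charles River and the mice deficient for the lipid-oxidizing enzyme ALOX15 from The Jackson Laboratory, so genotype and source of the animals cannot be told apart.

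The 4 libraries labelled Alox15-/- held 3723151 to 6952596 counts in total, and the WT libraries held 4810125 to 9538962. Levels are given as CPM, a gene's count per 1000000 counts of its library after scaling by the TMM method, with a mean ± SD over n = 4 libraries, and fold changes are those of the libraries labelled Alox15-/- against WT. The targeted gene went against its label. Alox15 lay at 66.8 ± 3.18 CPM in the libraries labelled Alox15-/- and at 5.28 ± 3.59 CPM in the WT libraries, a log2 fold change of 3.65 by edgeR's quasi-likelihood test (adjusted p = 1.08e-05). Where in the gene the deletion lies is not given in the sources used here. The higher count in the libraries labelled Alox15-/- was not resolved, and every direction below rests on the labels as deposited. The T cell identity list summed to between 5043.6 and 5682.9 CPM in the libraries labelled Alox15-/- and to between 5332.4 and 5879.3 CPM in WT, and 0 of its 16 genes passed the test (2 had an unadjusted p under 0.05, which 7.84% of all tested genes had, and 0 passed in DESeq2 or limma-voom). Of the 16 genes 6 were higher and 10 lower. Cd4, the defining marker of the cultured cells, was at 267 ± 39.8 against 334 ± 11.01 CPM without overlap between groups, as in 5.25% of all tested genes, and did not pass (edgeR adjusted p = 0.358). Cd3g went the other way, at 160 ± 7.16 against 129 ± 13.0 CPM, also without overlap, and did not pass (edgeR adjusted p = 0.294). Foxp3, the T reg transcription factor, was at 93.0 ± 17.0 against 124 ± 47.2 CPM with overlapping groups and did not pass (adjusted p = 0.655). Its WT mean rests on library 3 at 194 CPM and is 101 ± 7.90 CPM (SD, n = 3) without it.

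Proteins of the MS4A family cross the membrane several times, with both ends inside the cell, and many of them sit beside a signaling receptor and alter how strongly it signals. CD20 of B cells (Ms4a1) and the beta chain of the IgE receptor of mast cells and basophils (Ms4a2) are the best known. In mouse T cells Ms4a4b and Ms4a6b have been described in association with GITR (Tnfrsf18), a costimulatory TNF receptor that is abundant on T regs. Ms4a4c is known as an interferon-inducible gene, and Ms4a6c and Ms4a6d are best known from myeloid cells.

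All 5 genes lie in the Ms4a cluster of mouse chromosome 19, in the annotation GENCODE M21 of the build GRCm38. Ms4a4c (ENSMUSG00000024675.19) spans chr19:11404770-11427246, Ms4a4b (ENSMUSG00000056290.16) chr19:11443553-11467055, Ms4a6c (ENSMUSG00000079419.4) chr19:11469366-11482192 and Ms4a6b (ENSMUSG00000024677.13) chr19:11516512-11531256, all on the plus strand. Ms4a6d (ENSMUSG00000024679.10) lies at chr19:11586604-11604849 on the minus strand. The longest coding transcript has 8 exons for Ms4a6b and 7 for each of the others. The genes come in near copies. The coding sequences of Ms4a4b and Ms4a4c are both 678 bases long and 91.7% identical, Ms4a6b shares 80.4% with Ms4a6d and 75.7% with Ms4a6c, and a Ms4a4 gene and a Ms4a6 gene share between 53.3% and 55.5% (of the longer sequence).

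Reads near the 3′ end separate these copies for the most part. Of the 451 windows of 50 bases in the last 500 bases of the coding transcript, Ms4a4b shared 0 exactly with another gene and Ms4a6d shared 0. Ms4a4c shared 53 or 71 windows with Ms4a4b, according to the transcript with a full window (11.8% or 15.7%), Ms4a6b shared 11 or 0, in the former case with Ms4a6c (2.44%), and Ms4a6c shared 62 with Ms4a6b or other genes (13.7%). The counts of Ms4a4c and Ms4a6c are therefore less certain than those of their abundant partners, since how the authors assigned reads that match several places is not given in the sources used here. Ms4a4c, Ms4a6b and Ms4a6c also overlap a gene on the opposite strand, and the sources do not say whether strand was used. Of these, Gm19261 within Ms4a6b had 0 to 4 counts per library and BE692007 within Ms4a6c had 6 to 41.

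The stretches just before the transcription starts given by RefSeq are shown because the genes share runs of identical bases there. Promoters of 4 of the 5 members were found in RefSeq (GRCm38.p6, plus strand), together with that of the neighboring gene Gm8369, and the 250 bases up to each start are printed 5′ to 3′. For Ms4a4c, Ms4a6b and Gm8369 these bases lie inside the span of the gene in GENCODE M21, downstream of the gene start given there. Stretches before the GENCODE starts of these genes were not searched, and distances below are from the RefSeq starts. Capitals mark in each the longest run of bases that it shares exactly with any other of the 5 stretches, which is Gm8369 for Ms4a4b and Ms4a4c, Ms4a4c for Gm8369, and Ms4a6b and Ms4a6c for each other. Their positions are chr19:11443308-11443557 for Ms4a4b, chr19:11407411-11407660 for Ms4a4c, chr19:11518309-11518558 for Ms4a6b, chr19:11469118-11469367 for Ms4a6c and chr19:11491788-11492037 for Gm8369.
Ms4a4b: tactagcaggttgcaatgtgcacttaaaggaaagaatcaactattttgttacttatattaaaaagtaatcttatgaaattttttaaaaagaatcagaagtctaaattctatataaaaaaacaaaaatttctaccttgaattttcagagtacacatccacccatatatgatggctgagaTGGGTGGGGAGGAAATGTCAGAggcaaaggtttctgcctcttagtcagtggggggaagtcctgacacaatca
Ms4a4c: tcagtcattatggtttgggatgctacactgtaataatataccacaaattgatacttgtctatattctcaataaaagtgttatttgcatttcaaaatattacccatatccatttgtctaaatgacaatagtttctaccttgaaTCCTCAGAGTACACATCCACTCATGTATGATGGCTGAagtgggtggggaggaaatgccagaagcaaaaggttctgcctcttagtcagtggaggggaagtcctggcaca
Gm8369: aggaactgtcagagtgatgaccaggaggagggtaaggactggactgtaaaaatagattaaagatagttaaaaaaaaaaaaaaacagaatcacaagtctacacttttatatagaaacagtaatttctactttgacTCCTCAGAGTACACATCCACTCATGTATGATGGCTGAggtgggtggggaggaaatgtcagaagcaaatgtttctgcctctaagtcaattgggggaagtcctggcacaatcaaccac
Ms4a6b: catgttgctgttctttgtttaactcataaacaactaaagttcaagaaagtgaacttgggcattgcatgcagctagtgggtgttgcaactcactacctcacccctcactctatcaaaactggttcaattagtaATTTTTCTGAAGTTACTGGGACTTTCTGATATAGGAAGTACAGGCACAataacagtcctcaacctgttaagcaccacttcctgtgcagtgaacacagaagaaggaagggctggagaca
Ms4a6c: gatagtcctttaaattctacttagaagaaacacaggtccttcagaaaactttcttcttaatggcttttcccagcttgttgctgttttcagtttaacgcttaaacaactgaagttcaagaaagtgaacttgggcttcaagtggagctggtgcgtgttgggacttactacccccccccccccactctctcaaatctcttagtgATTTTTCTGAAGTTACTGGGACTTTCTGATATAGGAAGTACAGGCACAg

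The Ms4a4b and Ms4a4c stretches were identical at 74% of the window and shared a run of 20 bases that ends 22 bases before the start of Ms4a4b and 19 bases before that of Ms4a4c. Gm8369 was identical to Ms4a4b at 74.4% and to Ms4a4c at 70.4% of the window. It shared a run of 37 bases with Ms4a4c, 116 to 80 bases before its own start and 108 to 72 bases before that of Ms4a4c, and a run of 22 bases with Ms4a4b. Ms4a6b and Ms4a6c were identical at 59.6% and shared a run of 48 bases, which sits 118 to 71 bases before the start in Ms4a6b and 49 to 2 bases before the start in Ms4a6c. Every pair of a Ms4a4 or Gm8369 stretch with a Ms4a6 stretch was between 47.6% and 56.4% identical.

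Motifs of transcription factors of the interferon response and of T regs were searched on both strands of these stretches, and were chosen with the sequences in view. The interferon regulatory factor pair GAAANNGAA was found once in Ms4a6b, as GAAAGTGAA 206 to 198 bases before the start, and once in Ms4a6c, as the same letters 133 to 125 bases before the start, and 7.13% of 32851 mouse promoter stretches of the same length hold it. The longer core of the interferon response element, which is that pair with a further A at its 3′ end and so contains it, was not in these windows (2.98% of all promoters). Neither were the ETS-IRF composite, in which any 2 bases part GGAA from GAAA (2.30%), the STAT motif TTCNNNGAA (7.02%) nor the forkhead motif TGTTTAC (3.17%). The letters of Ms4a4b, Ms4a4c and Gm8369 held none of the 5 motifs in this window.

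Transcripts of Ms4a4b, Ms4a6b and Ms4a4c were higher in the libraries labelled Alox15-/- than in WT, by 1.57-fold, 1.63-fold and 2.32-fold. These 3 of the 4 tested members passed the threshold of an adjusted p of 0.05, all in the same direction, where 1.05% of the 12700 tested genes were called higher and 1.24% in either direction. In all 3 the lowest library labelled Alox15-/- lay above the highest WT library, as in 2.75% of the tested genes, and all 3 passed the filter of 2 CPM in all 8 libraries. Ms4a6c did not pass, with overlapping groups, and Ms4a6d was too rare for the test.

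Ms4a4b, the most abundant member by CPM, was at 250, 202, 183 and 291 CPM in libraries 1 to 4 labelled Alox15-/-. In the WT libraries 1 to 4 it was at 160, 122, 133 and 178 CPM. The groups did not overlap, but the gap between library 3 labelled Alox15-/- and WT library 4 was only 5.39 CPM. The means were 232 ± 48.5 and 148 ± 25.5 CPM (SD, n = 4 each), a log2 fold change of 0.65 ± 0.15 (SE) with an adjusted p = 0.0475 by edgeR's quasi-likelihood test. This was the last of the 158 genes called. The call was lost in limma-voom (adjusted p = 0.0526) and in the robust form of the edgeR test (adjusted p = 0.0627), and it held in only 2 of 8 fits with a library left out, those without Alox15-/- library 3 and without WT library 4 (adjusted p between 0.0118 and 0.205 over the 8 fits). The direction was the same in all of these fits.

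Ms4a6b, the partner of Ms4a4b in T cells, was at 176, 167, 133 and 172 CPM in libraries 1 to 4 labelled Alox15-/-. In the WT libraries 1 to 4 it was at 113, 94.96, 104 and 83.7 CPM. The 2 sets were separated by 19.9 CPM, between library 3 labelled Alox15-/- and WT library 1. The means were 162 ± 19.8 and 99.0 ± 12.6 CPM (SD, n = 4 each), with a log2 fold change of 0.71 ± 0.12 (SE) and an adjusted p = 0.00480 in edgeR's quasi-likelihood test. It stayed past the threshold in 8 of 8 fits with a library left out and in 9 of 9 other settings, with an adjusted p of at most 0.0279 and 0.0107.

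Ms4a4c, the interferon-inducible member, was far rarer than either. It was at 8.41, 9.72, 10.9 and 12.2 CPM in libraries 1 to 4 labelled Alox15-/-, on 35 to 85 counts each. In the WT libraries 1 to 4 it was at 3.74, 4.78, 4.41 and 5.01 CPM, on 24 to 44 counts. Every library labelled Alox15-/- was thus above every WT library, while the 95% exact Poisson intervals of the closest pair overlapped, with 5.86 to 11.7 CPM in library 1 labelled Alox15-/- and 3.21 to 7.46 CPM in WT library 4. Such intervals cover counting error only. The means of 10.3 ± 1.61 and 4.49 ± 0.553 CPM (SD, n = 4 each) gave a log2 fold change of 1.22 ± 0.21 (SE), the largest of the tested members, with an adjusted p = 0.00502 by edgeR's quasi-likelihood test. The call held in 8 of 8 fits with a library left out and in 9 of 9 other settings.

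Ms4a6c was at 8.65, 14.6, 10.9 and 11.2 CPM in libraries 1 to 4 labelled Alox15-/- and at 9.36, 10.7, 7.02 and 7.93 CPM in the WT libraries 1 to 4. The groups overlapped, since library 1 labelled Alox15-/- lay below both WT 1 and WT 2. The means were 11.3 ± 2.45 and 8.75 ± 1.60 CPM (SD, n = 4 each), and the log2 fold change of 0.37 ± 0.20 (SE) did not pass in edgeR's quasi-likelihood test (adjusted p = 0.718, unadjusted p = 0.0883). It had 36 to 78 counts per library.

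Ms4a6d reached 2 CPM in 1 library and was not tested. It had 10, 7, 8 and 4 counts in libraries 1 to 4 labelled Alox15-/-, or 2.40, 1.89, 1.51 and 0.572 CPM. In the WT libraries 1 to 4 it had 2, 6, 0 and 5 counts, or 0.312, 0.956, 0 and 1.04 CPM, and the 0 of WT library 3 allows a level of up to 0.301 CPM at 3 counts. Library 4 labelled Alox15-/- lay inside the WT range, so the groups overlapped. With no filter on low counts the log2 fold change was 1.52 ± 0.60 (SE) with an adjusted p = 0.371 in edgeR.

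**Figure D1:**
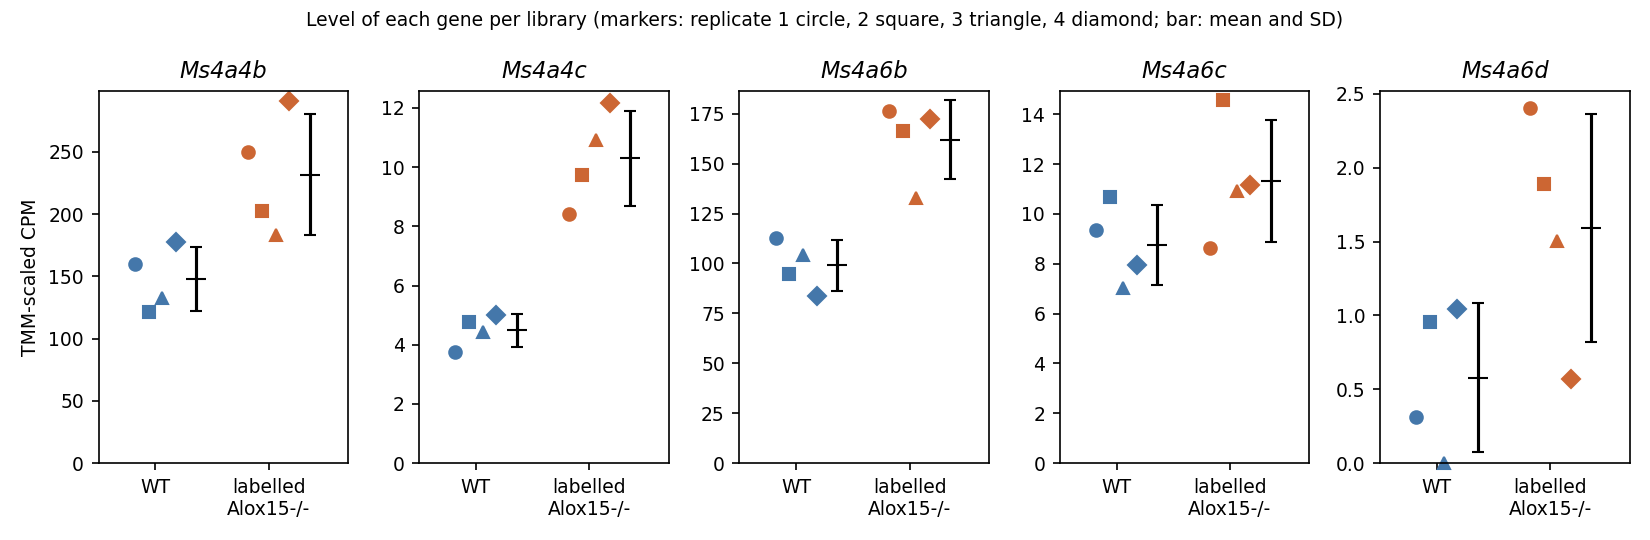
Level of each member in TMM-scaled CPM (y axes, each starting at 0) in the 4 WT libraries (blue) and the 4 libraries labelled Alox15-/- (orange), with 1 marker shape per replicate number and the mean and SD beside them. Ms4a4b, Ms4a4c and Ms4a6b do not overlap between groups, with a gap of 5.39 CPM for Ms4a4b, whereas Ms4a6c and Ms4a6d overlap.

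The levels of the genes relative to each other depend on the scale. Per kilobase of the longest coding transcript, Ms4a6b led with 60.4 ± 7.39 CPM per kb in the libraries labelled Alox15-/- and 36.9 ± 4.69 in WT, ahead of Ms4a4b with 48.8 ± 10.2 and 31.1 ± 5.37, and in both groups the mean ± SD ranges of these neighbors overlapped. Ms4a6c at 6.15 and 4.75 CPM per kb and Ms4a4c at 5.98 and 2.60 followed, and their mean ± SD ranges overlapped in the libraries labelled Alox15-/- but not in WT. Ms4a6d was the lowest at 1.12 and 0.408 CPM per kb. MACE-seq counts transcript ends, for which division by length is not needed, and by plain CPM Ms4a4b stood ahead of Ms4a6b. On either scale Ms4a4b and Ms4a6b were the abundant pair, and they held between 86.0% and 94.2% of all counts on Ms4a symbols in each library.

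Whether Ms4a4b and Ms4a6b moved by the same amount was tested on their ratio. The log2 ratio of Ms4a6b to Ms4a4b was -0.50, -0.28, -0.46 and -0.75 in libraries 1 to 4 labelled Alox15-/- and -0.50, -0.35, -0.34 and -1.08 in the WT libraries. The lowest value of each group was that of its library 4, in which Ms4a4b was highest. The means of -0.50 ± 0.20 and -0.57 ± 0.35 (SD, n = 4 each) differed by 0.07, with an exact permutation p = 0.771 (two-sided, smallest possible p 0.0286). The sign of this difference turned when Alox15-/- library 2 (-0.0049) or WT library 4 (-0.10) was left out.

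Within the groups the members did not follow each other closely. Over the 8 libraries Pearson's r of log2 CPM was 0.80 for Ms4a4b with Ms4a6b, 0.78 for Ms4a4b with Ms4a4c and 0.80 for Ms4a4c with Ms4a6b, values that carry the difference between groups. After removal of the group means they were 0.30, 0.07 and -0.58. Ms4a4b with Ms4a6c gave 0.31 and, within groups, -0.35. These are descriptions over 8 libraries that share their scaling, without a test.

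The genes most like each member over the 8 libraries differed from member to member. They were picked as the highest r among 12700 tested genes, so a high r, also within groups, is built into the choice. No test was made of them, and the values are descriptions only. The closest to Ms4a6b were Pced1b (r = 0.99), the interferon-induced GTPase gene Gvin1 (0.99) and the Schlafen gene Slfn1 (0.96), all 3 past the test themselves with log2 fold changes of 0.66, 1.52 and 0.70 (edgeR adjusted p = 0.0192, 8.37e-04 and 0.00129), and their r within groups was 0.93, 0.92 and 0.81. The closest to Ms4a4b were Prr13 (0.97), Akap6 (0.96), which encodes an anchor of protein kinase A, and Fgd3 (0.94), with an r within groups of 0.90, 0.90 and 0.82, and none of them passed (adjusted p between 0.305 and 0.561). The closest to Ms4a4c were Gm8420, AC153864.1 and Gm8797 (0.97 each), whose r within groups was 0.62, 0.53 and 0.49, and all 3 passed with log2 fold changes of 4.55, 2.00 and 0.59 (edgeR adjusted p = 5.77e-08, 1.44e-05 and 0.00136). The closest to Ms4a6c were AC131120.2 (0.99), Erh and Sec24d (0.96 each), and their adjusted p was between 0.616 and 0.850.

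The cluster that holds the members was compared with its surroundings. It spans chr19:10962293-11640851, or 679 kb, with 19 annotated Ms4a genes, and 45 tested genes lie in it or within 2 Mb of its ends. Of the 9 tested genes in the cluster, 4 of which are the tested members, 7 were called and 6 of them higher. Ms4a1 and Ms4a2 are among the 7 and passed the filter only through the group in which they are high, so that a difference was built into their selection, and without both 5 of 7 were called, all 5 higher. Of the 36 tested genes in the flanks 0 were called by edgeR, DESeq2 or limma-voom (1 had an unadjusted p under 0.05). The median log2 fold change was 0.83 in the cluster with or without both, -0.02 in the flanks and -0.01 over all genes tested. On the whole of chromosome 19, 10 of 419 tested genes were called.

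Among the 39 tested neighbors that are not Ms4a genes by name, 2 passed, and both lie inside the cluster. Gm8369 (ENSMUSG00000058470.10, protein coding, chr19:11485938-11512577) lies between Ms4a6c and Ms4a6b, and the aligned part of its coding sequence is 89.7% identical to Ms4a4b and 91.1% to Ms4a4c. It was at 55.3, 55.1, 51.7 and 78.4 CPM in libraries 1 to 4 labelled Alox15-/- and at 34.5, 33.1, 39.1 and 28.2 CPM in the WT libraries, without overlap. The means were 60.1 ± 12.3 and 33.7 ± 4.50 CPM, a log2 fold change of 0.83 ± 0.15 (SE) with an adjusted p = 0.00651 by edgeR, and the call held in 8 of 8 fits with a library left out. None of its windows of 50 bases near the 3′ end was shared with another gene.

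AW112010 (ENSMUSG00000075010.5, chr19:11047612-11055808, minus strand), a transcript annotated as lincRNA and known to be induced by interferon, was at 211, 284, 218 and 185 CPM in libraries 1 to 4 labelled Alox15-/- and at 150, 142, 107 and 76.0 CPM in the WT libraries. All 4 former libraries lay above the latter. The means of 225 ± 42.1 and 119 ± 34.1 CPM gave a log2 fold change of 0.92 ± 0.18 (SE) with an adjusted p = 0.0171 by edgeR. The call was lost without Alox15-/- library 2 or 3 and in the robust fit, where the adjusted p was at most 0.0986. The farthest neighbors in value were Slc15a3 at -0.46 and Mpeg1 at 1.35 (edgeR adjusted p = 0.831 and 0.458), and Mpeg1, a gene of macrophages, passed with no filter on low counts.

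**Figure D2:**
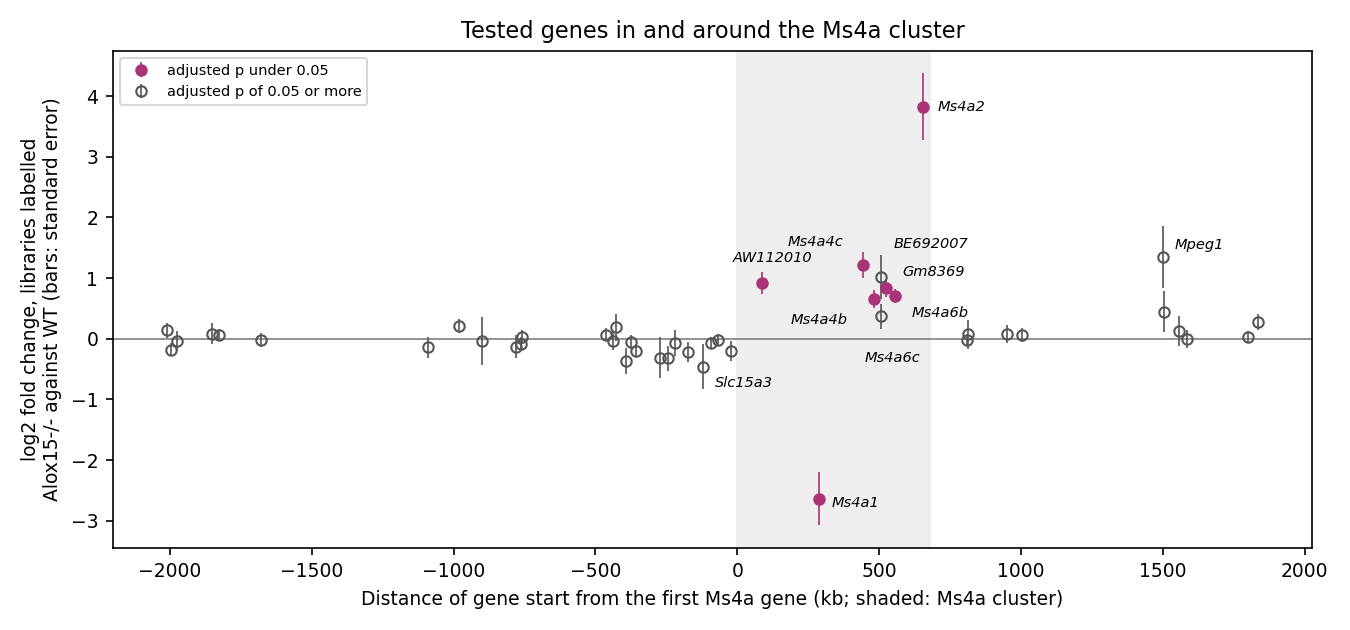
Log2 fold change (y axis, libraries labelled Alox15-/- against WT, bars are standard errors) of the 45 tested genes by distance of their start from the Ms4a gene nearest the chromosome's start (x axis, kb), with the 679 kb cluster shaded and genes with an adjusted p under 0.05 filled. The 7 filled points, of which Ms4a1 and Ms4a2 passed the filter through 1 group alone, lie in the shaded cluster, while the flanks scatter around 0.

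The table lists 17 Ms4a symbols, and 12 of them are no members. Of those, 8 (Ms4a4a, Ms4a4d, Ms4a8a, Ms4a12, Ms4a13, Ms4a14, Ms4a15 and Ms4a18) had under 10 counts in all libraries together, and only Ms4a1 and Ms4a2 were tested, each of them through 1 group alone. Ms4a2, the mast cell and basophil gene, was at 12.01, 23.2, 9.03 and 3.58 CPM in libraries 1 to 4 labelled Alox15-/- and between 0.312 and 1.25 CPM in WT, a log2 fold change of 3.82 (edgeR adjusted p = 0.00120). Ms4a1, the CD20 gene of B cells, was the only one called lower, at 0.547 ± 0.305 against 3.25 ± 0.785 CPM (log2 fold change -2.64, adjusted p = 0.00413), on 1 to 4 counts per library labelled Alox15-/-. Ms4a3, known from basophils and myeloid precursors, had 5, 30, 8 and 2 counts in libraries 1 to 4 labelled Alox15-/- and at most 1 in a WT library. Ms4a7 had 11 counts in all. The related Tmem176a and Tmem176b had log2 fold changes of 0.66 and 0.72 that did not pass (edgeR adjusted p = 0.322 and 0.359). With no filter on low counts Tmem176a, Tmem176b and Ms4a3 were called higher as well (adjusted p = 0.00286, 0.00125 and 6.40e-09).

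GITR, the receptor described with Ms4a4b and Ms4a6b, showed no detectable difference between the groups. Tnfrsf18 was at 324, 270, 327 and 303 CPM in libraries 1 to 4 labelled Alox15-/- and at 314, 329, 253 and 382 CPM in the WT libraries, and the groups overlapped throughout. The means were 306 ± 26.5 and 320 ± 53.1 CPM, a log2 fold change of -0.06 ± 0.12 (SE) with an adjusted p = 0.941 by edgeR. Its list has 13 genes, Tnfrsf18 itself included (TNF receptors of T cells, their ligands, TRAF adaptors and Siva1). Of these 11 were tested, again with Tnfrsf18, and 0 passed in edgeR, in DESeq2 or in limma-voom, and 0 had an unadjusted p under 0.05. Their log2 fold changes ran from -0.51 (Tnfsf9, the ligand of 4-1BB) to 0.14 (Traf5, an adaptor) with a median of -0.03. Tnfrsf4 (OX40) was at -0.19, its ligand gene Tnfsf4 at -0.03, Tnfrsf9 (4-1BB) at -0.18 and Cd27 at 0.12. Traf1, Traf2 and Traf3 were at -0.05, 0.02 and -0.02 and Siva1 at 0.08, while Tnfsf18, the ligand of GITR, and Cd70 were not tested.

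Part of the interferon response was higher together with Ms4a4c. Of the 48 listed genes 41 were tested and 13 were called, all 13 higher, where 1.05% of all tested genes were. The median log2 fold change of the list was 0.56 against -0.01 over all genes tested. Called were the effector and regulator genes Isg15 (1.59), Isg20 (1.11), Ifit3 (1.58), Ifitm1 (3.47), Ifitm3 (2.10), Usp18 (1.42), Xaf1 (2.23), Ifi27 (0.85), Epsti1 (1.11), the transcription factor gene Irf7 (1.26) and the GTPase genes Gbp2 (0.88), Gbp5 (0.90) and Irgm2 (1.06), given as log2 fold changes. In this range Ms4a4c at 1.22 had 8 of the 41 tested genes above it, and Ms4a4b at 0.65 had 22 below it. The count fell to 7 without Alox15-/- library 3 or WT library 1 and to 8 without Alox15-/- library 2 or WT library 2, and was 20 of 47 with no filter on low counts. The list summed to between 1209.4 and 1721.0 CPM in WT and to between 1779.1 and 2645.3 CPM in the libraries labelled Alox15-/-, without overlap.

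Genes of naive T cells and quiescence gave 0 calls among 17 tested by edgeR (2 with an unadjusted p under 0.05, 1 called by DESeq2), with a median log2 fold change of 0.14. Of the 12 T reg identity genes 1 passed, Itgae (1.15, adjusted p = 0.00422 by edgeR), which encodes the integrin chain CD103. With no filter on low counts 3 of the 12 were called, 2 higher and 1 lower. The median of the T reg identity list was -0.06. The median of the T cell identity list was -0.06 as well.

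Markers of other cells moved with the groups, in material that the labels and the methods describe differently (spleen or cultured cells), and their part in the values of the members was not tested. The 27 myeloid markers summed to between 260 and 660 CPM in the libraries labelled Alox15-/- and to between 171 and 211 CPM in WT, and 9 of the 14 tested were called, all higher, among them Lyz2 (3.49), Tyrobp (3.03) and S100a8 (4.61). Of the 14, Fcgr3, Clec4e and S100a9 passed the filter only through the group in which they are high, and without them 6 of 11 were called. Without Alox15-/- library 2 or 3, 11 were tested and 5 called. Mast cell and basophil markers summed to between 145 and 377 against between 59.3 and 84.1 CPM with 8 of 9 tested genes called, all higher. Here Ms4a2, Cma1, Hdc and Prss34 passed the filter through that group alone, and without them 4 of 5 were called, the same count as without any 1 of the libraries labelled Alox15-/-. Erythroid markers summed to between 915 and 3504.6 against between 73.0 and 139.9 CPM with 5 of 6 called, all higher (4 of 5 without Alas2, which passed through that group alone, and 1 of 2 with the hemoglobin genes left out). NK cell markers ranged from 36.8 to 123.6 CPM against 18.5 to 38.7 with 3 of 6 called (Klrc1, Klrd1 and Fcer1g), 2 of 5 without Klrc1, which passed through that group alone, and 1 without Alox15-/- library 2, 3 or 4 or WT library 2. None of the genes in these lists was at 0 in all 8 libraries.

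Markers of B cells (223 to 322 CPM against 219 to 320), dendritic cells (200 to 336 against 222 to 252) and CD8 T cells (42.6 to 80.7 against 52.7 to 68.3) overlapped between the groups. By edgeR 0 of 4, 0 of 6 and 0 of 5 tested genes passed, with 1, 1 and 5 at an unadjusted p under 0.05, while DESeq2 called 0, 1 and 1. The CD8 list did not move one way, with Cd8a (-0.69) and Cd8b1 (-0.65), which encode CD8 itself, below 0 and the cytotoxic and effector genes Nkg7 (0.67), Ccl5 (1.21) and Eomes (0.66) above 0, as log2 fold changes, and with no filter on low counts 2 of its genes were called higher and 1 lower. In bulk libraries more cells of a type and more transcript per cell cannot be told apart.

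Library 4 labelled Alox15-/- had the lowest sums of its group for markers of other cells and the highest Ms4a4 levels. It had the lowest sum of its group for the myeloid, dendritic, B cell, NK cell, CD8 T cell, mast cell and erythroid markers and for the interferon list, and its NK cell sum of 36.8 CPM lay inside the WT range. Its T reg identity sum was the lowest as well. Its T cell identity sum of 5682.9 CPM was instead the highest of its group, its naive T cell sum the second highest and its GITR list sum the third highest. The same library had the highest Ms4a4b (291 CPM), Ms4a4c (12.2 CPM) and Gm8369 (78.4 CPM) of its group and the second highest Ms4a6b and Ms4a6c, whereas AW112010 was at its lowest there. Ms4a2 (3.58 CPM) and Ms4a6d (0.572 CPM) were also lowest there. Without it, the log2 fold change was 0.52 for Ms4a4b, the call being lost, and Ms4a4c and Ms4a6b stayed past the threshold.

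**Figure D3:**
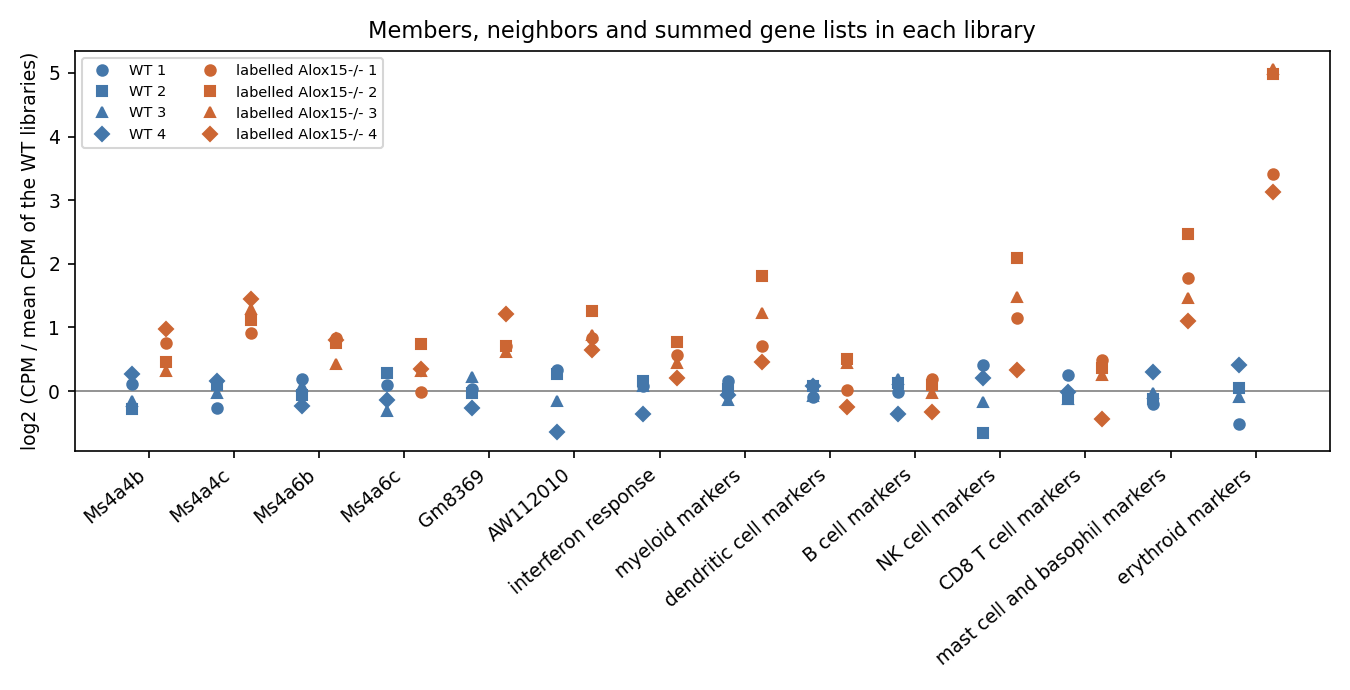
Level of each library relative to the mean of the 4 WT libraries (y axis, log2 ratio of CPM) for 4 members, both neighbors that passed the test and the summed interferon and marker lists, with WT in blue, libraries labelled Alox15-/- in orange and 1 marker shape per replicate number. The diamond of library 4 labelled Alox15-/- is the highest orange point for Ms4a4b (0.98), Ms4a4c (1.44) and Gm8369 and the lowest for each summed list drawn. The T cell identity, T reg identity, naive T cell and GITR lists are not drawn, and library 4 has the highest T cell identity sum of its group.

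**Figure D4:**
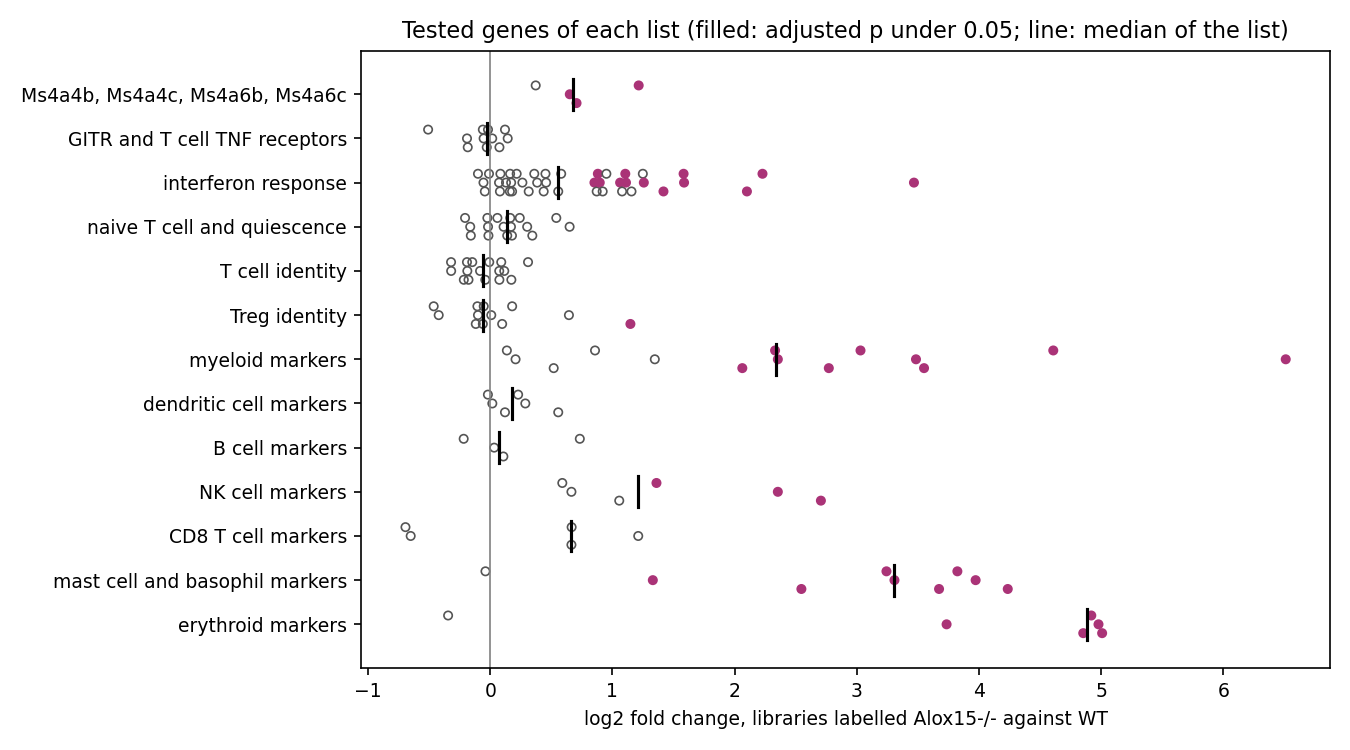
Log2 fold change (x axis, libraries labelled Alox15-/- against WT) of each tested gene in the lists named on the y axis, filled where the adjusted p is under 0.05, with the median of each list as a line. The 4 tested members have 3 filled points between 0.65 and 1.22, the GITR list has 0 filled of 11 around a median of -0.03, and the mast cell and erythroid lists lie farthest to the right.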

How the data were processed

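RNA of 8 T reg libraries, 4 labelled Alox15-/- and 4 labelled WT, was read by MACE-seq. The labels name a small RNA kit and spleens as the stored material, and the study's methods the MACE-Seq Kit and cultured cells. The deposited table holds raw, unnormalized counts by the authors, 1 row for each gene symbol, and the submitters' processing notes name Bowtie, edgeR and GRCm38, without versions. The removal of duplicate reads is not given in the sources used here. Library totals are in the report, and no pair of libraries agreed within sampling noise (lowest chi-square per degree of freedom 4.19).

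Counts were compared with edgeR 4.0.16 (quasi-likelihood test, TMM scaling, group as the only term) in R 4.3.3. The test covered the 12700 genes that reached 2 CPM in 4 or more libraries, and its p-values were corrected over all of them (Benjamini–Hochberg, threshold 0.05). The common dispersion corresponded to a biological coefficient of variation of 14.5%. The ratio of Ms4a6b to Ms4a4b (CPM plus 0.5) was compared with an exact permutation test in scipy 1.17.1. Alternatives used DESeq2 1.42.0, limma-voom (limma 3.58.1), other scalings and filters, a replicate block and each library left out in turn. The steps were tested on simulated counts.

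Named are the 5 members, Alox15, family genes with counts, the GITR list, listed genes and neighbors within 2 Mb past the threshold, and for each tested member the 3 genes with the highest Pearson correlation. Neighbors with the lowest and highest value, Cd4, Cd3g, Foxp3, the CD8 genes, BE692007 and Gm19261 were added after values were seen. The members and lists were chosen with earlier results of these data known. The series names 4 mice per group, while no label ties a library to a mouse, so p-values measure the spread between these libraries. Promoters came from RefSeq (GRCm38.p6), and transcripts and positions from GENCODE M21.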

Additional observations from a re-analysis of the deposited data

How the results depend on the processing

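Ms4a4c and Ms4a6b kept their direction and their side of the threshold in all 9 alternative settings and in all 8 fits with a library left out, and Ms4a6c did not pass in any of them. Ms4a4b kept its direction, with a log2 fold change of 0.65 in limma-voom and 0.65 in the robust edgeR fit, both no longer past the threshold, and of 0.52 to 0.75 with a library left out. The difference in mean log2 (CPM + 0.5) of Ms4a6d, 1.01 in the report's setting, ran from 0.69 to 1.30 with a library left out, and DESeq2, limma-voom, the robust fit and the replicate block gave no value for it, since the filter removes the gene. Without a filter on low counts 388 genes were called (298 higher, 90 lower) in place of 158 (133 higher, 25 lower), 5 other family genes in place of 2 (Ms4a3, Tmem176a and Tmem176b were added), and 62 listed genes in place of 39. With a library left out these counts ran from 86 to 173, from 1 to 2 and from 22 to 41. Ms4a1 and Ms4a2 then failed the filter in 4 of the 8 fits each. Of the neighbors that are not Ms4a genes by name, 1 was called in the robust fit, where AW112010 was lost, and 1 to 2 with a library left out. The log2 ratio of Ms4a6b to Ms4a4b differed by -0.0049 without Alox15-/- library 2 and by -0.10 without WT library 4, and over all 8 omissions by -0.10 to 0.15, against 0.07 with all libraries. The cause of these changes was not tested.

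The sources used here do not say whether libraries of equal replicate number were handled together, and the correlations below, over so few pairs, cannot decide it. The correlation of same-numbered libraries after removal of the group means was 0.07, 0.17, -0.18 and -0.02, and only the libraries numbered 2 correlated best with their own number. With the number as a replicate block the log2 fold changes were 0.64 for Ms4a4b (edgeR adjusted p = 0.00632), 1.20 for Ms4a4c, 0.71 for Ms4a6b and 0.38 for Ms4a6c, and 146 genes were called, so the block changed no call of a member, while among the neighbors Mpeg1 was called as well.

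Ms4a6d rests on 0 to 10 counts per library. Whether depth set the missing call of Ms4a6c was not tested.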
